A study of Mus musculus with 24 samples.

Results

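The RNA levels of 10 genes of amino acid supply and of the ATF4 response were examined in the hippocampus of adult mice that differed in the coactivator CBP and in housing. Of these genes, 6 encode amino acid transporters or a transporter subunit (Slc7a11, Slc7a5, Slc3a2, Slc38a2, Slc38a3 and Slc1a4), and 4 encode the transcription factor ATF4 or products that follow it (Atf4, Asns, Trib3 and Ddit3). The genes were chosen by name with earlier results of these mice known, and they are 10 of the 55471 genes counted. Slc7a11, Slc38a2 and Slc38a3 also belong to the genes that the study selected on these same mice for an effect of housing or for an interaction of housing with genotype. Their values are therefore given as a description without a test, and the other 7 genes are given with p-values adjusted over all genes tested.

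The series holds 12 female mice on a C57BL/6 background (C57BL/6J in the study's methods), aged 3 to 6 months, with 3 in each of 4 groups, and the counts of each mouse join 2 sequencing runs. CBP-ifKOs carried floxed alleles of Crebbp, the gene of CBP, and the tamoxifen-inducible recombinase creERT2 under the Camk2a promoter, which is active in excitatory neurons of the forebrain. Controls were littermates without creERT2, and tamoxifen was given to both genotypes. Mice lived in standard cages (SC) or in an enriched environment (EE), which offered more space, company and objects to explore. Exposure to EE lasted a month where the study describes it. The 4 groups were SC-housed controls, SC-housed CBP-ifKOs, EE-housed controls and EE-housed CBP-ifKOs. The model has limits that bear on every value below, because the recombined allele still encodes a truncated protein, the deletion spares interneurons and glia, and the RNA came from whole hippocampus. In such bulk RNA, fewer cells of a type and less RNA per cell cannot be told apart.

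Neurons and glia exchange amino acids through carriers of the solute carrier families. SLC7A11, the light chain of system xc-, imports cystine in exchange for glutamate and feeds glutathione synthesis, and it works as a dimer with the heavy chain SLC3A2. SLC7A5 (LAT1), which carries large neutral amino acids, pairs with the same heavy chain. When amino acids run short or proteins misfold in the endoplasmic reticulum, kinases phosphorylate the initiation factor eIF2, general translation slows, and the ATF4 mRNA is translated more. ATF4 then raises transcription of transporters, of biosynthetic enzymes such as asparagine synthetase (Asns) and of the regulators Trib3 and Ddit3 (CHOP), often through a composite C/EBP-ATF response element.

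The promoters are shown because 4 of the 8 members with a RefSeq promoter window held the core of that element. The windows cover 250 bases before and 50 bases after the annotated start (RefSeq, GRCm38.p6), and none was listed for Slc7a5 or Slc38a3. Both strands were searched for TGATGNAA, the core of the C/EBP-ATF element, which is in capitals in the sequences below. It occurred in Slc7a11, Slc1a4, Asns and Trib3, and in 1304 of 32851 windows of all genes (3.97%). The members were chosen by name as genes of amino acid supply and of the ATF4 response, so setting these shares side by side is no test. The Slc7a11 window at chr3:50443564-50443863 (minus strand) held it on opposite strands at positions -66 to -59 and -47 to -40, counted from the start. The match in Slc1a4 (chr11:20332664-20332963, minus strand) spanned positions -4 to 4, that in Asns (chr6:7693160-7693459, minus strand) lay at -23 to -16, and that in Trib3 (chr2:152344011-152344310, minus strand) lay at 15 to 22.
Slc7a11: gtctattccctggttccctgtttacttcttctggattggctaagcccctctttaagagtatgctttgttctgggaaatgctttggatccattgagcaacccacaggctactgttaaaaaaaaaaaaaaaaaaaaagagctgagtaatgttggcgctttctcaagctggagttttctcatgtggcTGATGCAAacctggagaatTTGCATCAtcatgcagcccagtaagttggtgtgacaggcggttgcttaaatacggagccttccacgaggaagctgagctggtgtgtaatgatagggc
Slc1a4: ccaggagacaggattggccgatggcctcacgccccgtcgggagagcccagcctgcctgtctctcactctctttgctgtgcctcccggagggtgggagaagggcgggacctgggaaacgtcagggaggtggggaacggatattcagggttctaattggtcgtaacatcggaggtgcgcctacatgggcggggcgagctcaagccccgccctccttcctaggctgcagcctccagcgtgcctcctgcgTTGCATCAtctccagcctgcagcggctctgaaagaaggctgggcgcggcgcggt
Asns: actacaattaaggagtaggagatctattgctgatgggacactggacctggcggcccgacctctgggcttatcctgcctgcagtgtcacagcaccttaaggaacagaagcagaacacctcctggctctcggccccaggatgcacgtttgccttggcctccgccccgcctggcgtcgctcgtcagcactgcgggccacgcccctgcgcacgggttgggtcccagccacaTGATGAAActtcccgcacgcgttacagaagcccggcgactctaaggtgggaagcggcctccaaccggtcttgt
Trib3: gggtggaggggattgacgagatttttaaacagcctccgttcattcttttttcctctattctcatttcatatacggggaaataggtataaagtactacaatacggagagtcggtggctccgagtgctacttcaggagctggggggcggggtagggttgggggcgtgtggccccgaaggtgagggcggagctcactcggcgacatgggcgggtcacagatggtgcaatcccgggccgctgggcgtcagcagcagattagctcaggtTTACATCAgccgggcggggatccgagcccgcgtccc

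The windows of Slc3a2, Slc38a2, Atf4 and Ddit3 held no such match. The core of the antioxidant response element used by NRF2, TGACNNNGC, was found in the windows of Slc38a2 (positions -27 to -19) and Asns (-172 to -164) and in 12.39% of all windows. The palindromic cAMP response element TGACGTCA, through which CREB recruits CBP, was in none of the 8 windows and in 1.79% of all windows. No matches to different motifs overlapped. These are matches of letters and no measure of binding.

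Library totals lay between 26874015 and 27971488 counts in the 6 controls and between 28582210 and 37448388 in the 6 CBP-ifKOs. Levels are given as CPM, counts scaled to TMM-adjusted library sizes, and 3 counts correspond to between 0.0801 and 0.112 CPM, for counting error only. The counts of all CBP-ifKO libraries held even numbers only, whereas between 54.0% and 55.1% of nonzero counts were odd in the controls, so that this property and the genotype cannot be told apart. Whether each CBP-ifKO read was counted 2 times was not tested. If so, the CBP-ifKO totals would be 14291105 to 18724194, the counts of Trib3 in CBP-ifKOs would be smaller by the same factor, and 3 counts would correspond to a higher CPM there. Crebbp, which checks the labels, was at 75.5 ± 5.78 CPM (SD, n = 3) in SC-housed controls and at 50.7 ± 0.796 in SC-housed CBP-ifKOs, with a log2 fold change of -0.58 ± 0.06 (SE; edgeR quasi-likelihood test, adjusted p = 0.000542). In EE it was at 73.0 ± 3.80 and 46.5 ± 1.89 CPM, with a log2 fold change of -0.64 ± 0.06 (adjusted p = 0.000407). One library stood apart, since the summed choroid plexus markers (Ttr, Folr1, Kl, Clic6, Kcnj13 and Aqp1) reached 1253 CPM in replicate 1 of the EE-housed controls and between 35.6 and 63.0 CPM in the other 11 mice. Values without that mouse are given below for Slc7a11, Slc38a2, Slc38a3 and Slc7a5 and for the medians of the gene lists. Excitatory neuron markers summed to between 1591 and 1866 CPM and oligodendrocyte markers to between 3537 and 5020 CPM over the 12 mice, with overlapping groups. The summed interneuron markers were lower in every CBP-ifKO (796 to 855.4 CPM) than in every control of the same housing (851.2 to 946.6 CPM over both), as was the microglial sum (289.1 to 317.9 against 304.8 to 338.1 CPM). The members of the interneuron list did not move as one, since Sst had the largest negative values (-0.35 in SC, adjusted p = 0.0324, and -0.30 in EE, adjusted p = 0.0873) and Vip was higher in every CBP-ifKO of both housings (0.17 and 0.26, adjusted p = 0.294 and 0.145). The endothelial sum was lower in every CBP-ifKO of SC (149.2 to 161.2 against 171.8 to 178 CPM) and overlapped in EE. The choroid plexus sum was also lower in every CBP-ifKO of SC (35.7 to 39.3 against 47.5 to 54.0 CPM), mostly through Ttr, the transthyretin gene, which fell by 1.70 on the log2 scale (SE 0.12, adjusted p = 2.2e-05). Kl of the same list was higher in every CBP-ifKO of SC (0.22 ± 0.08, adjusted p = 0.141). Sst, Vip, Ttr and Kl were picked from their lists after their values were seen.

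Per kilobase of gene length, the order of levels in SC-housed controls followed no split between transporters and ATF4 targets. Atf4 was at 58.5 ± 3.24 CPM per kb (SD, n = 3), followed by Asns at 40.2 ± 2.04, Slc3a2 at 35.7 ± 3.64, Slc1a4 at 23.1 ± 1.04 and Slc7a5 at 17.5 ± 0.728. Slc38a2 (14.3 ± 1.31), Slc38a3 (12.6 ± 1.26) and Ddit3 (10.8 ± 0.908) formed a run in which neighbours differed by little more than their spread, as did Asns and Slc3a2. Slc7a11 was lower, at 3.58 ± 0.232 CPM per kb, and Trib3 was near the limit of detection, at 0.333 ± 0.121. The order of the group means was the same in the other groups, except that Slc38a3 lay above Slc38a2 in EE-housed controls (15.0 ± 0.469 and 12.9 ± 1.41 CPM per kb).

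**Figure D1:**
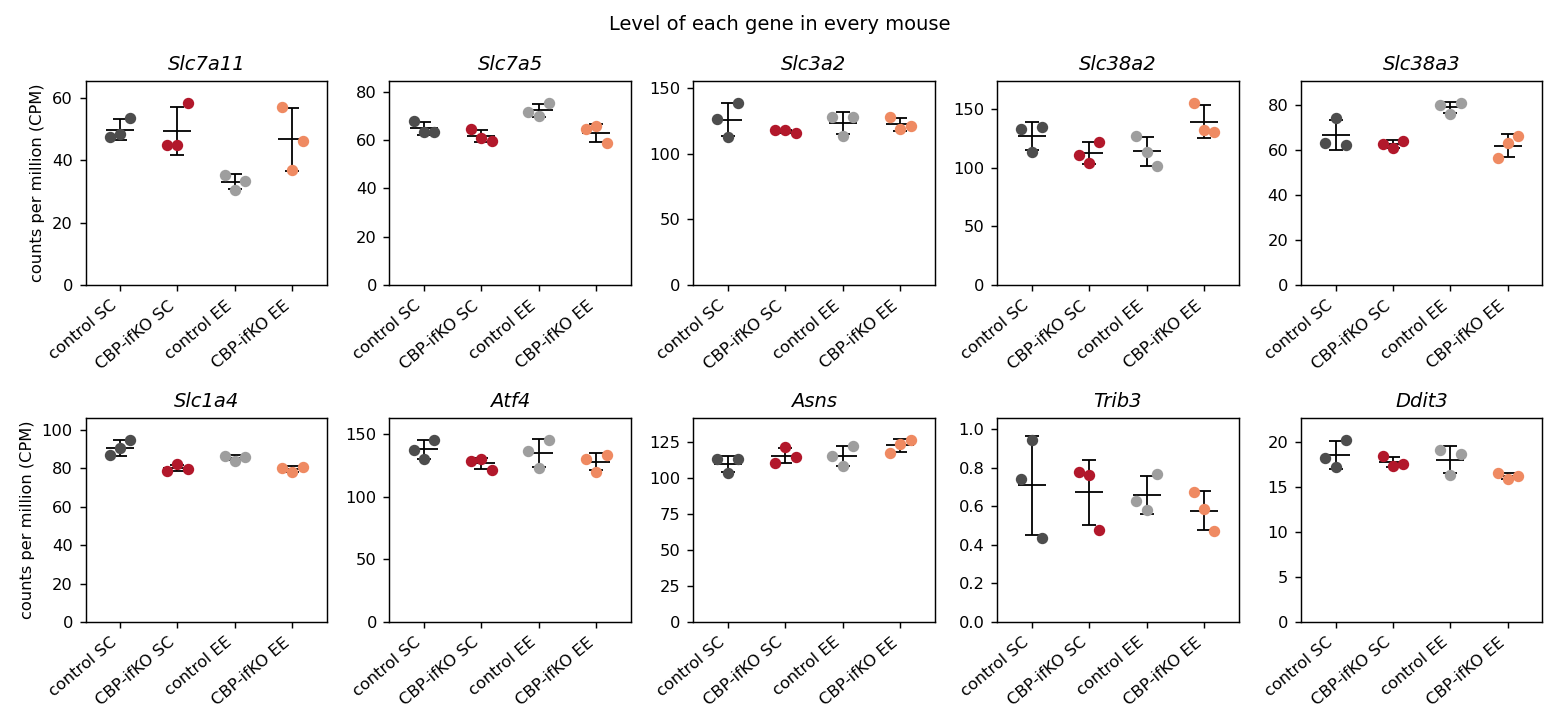
CPM of each gene (vertical axes, from 0) in each of the 12 mice, with 3 points per group and the mean ± SD as bars. Slc7a11 is low in the 3 EE-housed controls (30.6 to 35.3 CPM), Slc38a3 is high in the same mice (76.2 to 80.9 CPM), and Atf4, Asns and Ddit3 vary little between groups.

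Slc7a11, the cystine carrier (chr3:49892526-50443614, minus strand, GRCm38), had the largest fitted differences among the 10 genes from SC to EE in controls and between genotypes in EE, and the smallest between genotypes in SC. The SC-housed controls had 47.6, 48.5 and 53.6 CPM and the EE-housed controls 35.3, 30.6 and 33.5 CPM. The SC-housed CBP-ifKOs had 45.0, 45.0 and 58.4 CPM and the EE-housed CBP-ifKOs 57.2, 37.0 and 46.1 CPM. All EE-housed controls thus lay below all mice of the other 3 groups, whereas both groups of CBP-ifKOs spread over the range of the SC-housed controls or beyond it. From SC to EE the fitted log2 fold change was -0.59 ± 0.13 (SE) in controls and -0.08 ± 0.13 in CBP-ifKOs, and the difference of these changes was 0.51 ± 0.19. Between genotypes it was -0.01 ± 0.10 in SC and 0.51 ± 0.13 in EE. Without replicate 1 of the EE-housed controls, the change in controls was -0.64 ± 0.15, the genotype difference in EE 0.55 ± 0.15 and the difference of the housing changes 0.56 ± 0.20. Without replicate 1 of the EE-housed CBP-ifKOs, the mouse with 57.2 CPM, the genotype difference in EE was 0.33 ± 0.10 and the difference of the housing changes 0.34 ± 0.16. The change in CBP-ifKOs had no stable sign, as it was -0.25 ± 0.12 without that mouse and 0.06 ± 0.12 without replicate 2 of the same group. Nor had the genotype difference in SC, which lay between -0.15 and 0.06 when 1 mouse was left out.

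Markers of meningeal fibroblasts (Col1a1, Col1a2, Dcn, Lum and Slc6a13) varied with Slc7a11 in some comparisons and not in others. Their summed level was 93.1, 140.5 and 150.5 CPM in SC-housed controls, 103.6, 104.5 and 94.3 in EE-housed controls, 74.6, 70.7 and 132.8 in SC-housed CBP-ifKOs and 159.0, 69.3 and 81.0 in EE-housed CBP-ifKOs. Within each group of CBP-ifKOs the mouse with the highest marker sum, replicate 3 in SC and replicate 1 in EE, also had the highest Slc7a11. In controls the fitted change from SC to EE was negative for all 5 markers (median log2 fold change -0.51), and the difference of the housing changes between genotypes was positive for all 5 (median 0.76). Between genotypes in EE, 4 of 5 were positive, and Col1a1 passed the adjusted threshold (0.72 ± 0.17, adjusted p = 0.0393). Other values went differently. Between genotypes in SC all 5 markers had negative values (-0.55 to -0.20) at a Slc7a11 difference of -0.01, and from SC to EE in CBP-ifKOs 4 of 5 were positive while Slc7a11 had -0.08. Among EE-housed controls the highest marker sum (104.5 CPM) came with the lowest Slc7a11 (30.6 CPM), and the SC-housed CBP-ifKOs with sums of 70.7 and 74.6 CPM both had 45.0 CPM of Slc7a11, more than every EE-housed control. No marker of the list was at 0 in any mouse. The part of these cells in the values of Slc7a11 was not tested. The genes whose log2 CPM was most like that of Slc7a11 over the 12 mice were Palld (r = 0.909, and 0.942 after removal of group means), Bicc1 (0.903 and 0.782) and Rnf41 (0.894 and 0.650), which encode an actin-associated protein, an RNA-binding protein and a ubiquitin ligase.

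**Figure D2:**
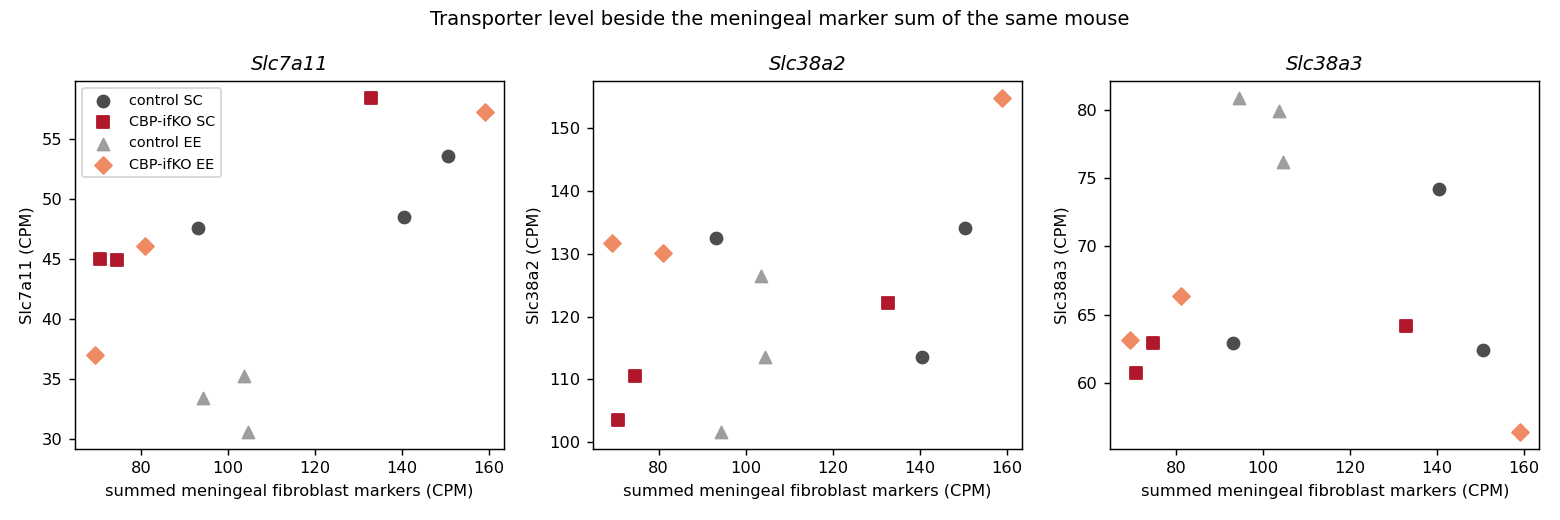
CPM of Slc7a11, Slc38a2 and Slc38a3 (vertical axes) against the summed CPM of 5 meningeal fibroblast markers (horizontal axes) in each of the 12 mice, with a colour and symbol for each group. The EE-housed CBP-ifKO with 159.0 CPM of markers is high in Slc7a11 and Slc38a2 and has the lowest Slc38a3 (56.4 CPM), while the 3 EE-housed controls are low in Slc7a11 at marker sums of 94.3 to 104.5 CPM.

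Slc38a2 (SNAT2, chr15:96687392-96699730, minus strand), a sodium-coupled carrier of small neutral amino acids and a known ATF4 target, had its larger fitted housing difference in CBP-ifKOs. The SC-housed CBP-ifKOs had 110.5, 103.6 and 122.1 CPM and the EE-housed CBP-ifKOs 154.9, 131.7 and 130.2 CPM, without overlap. The SC-housed controls had 132.6, 113.5 and 134.2 CPM and the EE-housed controls 126.5, 113.6 and 101.6 CPM, and these groups overlapped. By housing, the log2 fold change (EE against SC) was 0.31 ± 0.09 in CBP-ifKOs and -0.15 ± 0.09 in controls, and the difference of these changes was 0.46 ± 0.13. Without replicate 1 of the EE-housed controls, the change in controls was -0.24 ± 0.10 and the difference of the changes 0.55 ± 0.13, and without their replicate 3 the change in controls was -0.08 ± 0.10. Between genotypes the log2 fold change was -0.18 ± 0.08 in SC and 0.30 ± 0.09 in EE, where all CBP-ifKOs lay above all controls, and the EE value was 0.38 ± 0.09 without replicate 1 of the controls. The EE-housed CBP-ifKO with the highest meningeal marker sum also had the highest Slc38a2, and without that mouse the genotype difference in EE was 0.21 ± 0.09. Over the 12 mice its level was most like those of Ccl12 (r = 0.935), Clec10a (0.924) and Gm45453 (0.890). Ccl12 encodes a chemokine and Clec10a a lectin of macrophages, and both were scarce, with mean log2 CPM of -1.23 and -1.45.

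Slc38a3 (SNAT3, chr9:107650634-107669530, minus strand), the glutamine carrier of astrocytes, differed in the opposite direction in EE. The EE-housed controls had 79.9, 76.2 and 80.9 CPM and lay above every other mouse. The SC-housed controls had 63.0, 74.2 and 62.4 CPM, the SC-housed CBP-ifKOs 62.9, 60.7 and 64.1, and the EE-housed CBP-ifKOs 56.4, 63.1 and 66.3. Its log2 fold change by housing was 0.25 ± 0.07 in controls and -0.02 ± 0.07 in CBP-ifKOs, and the difference of these changes was -0.26 ± 0.10. Between genotypes it was -0.09 ± 0.07 in SC and -0.34 ± 0.07 in EE. Over all alternative fits the SC value lay between -0.13 and -0.003 and the EE value between -0.40 and -0.28. Without replicate 1 of the EE-housed controls, these values were 0.24 ± 0.08 for the change in controls, -0.34 ± 0.08 for the genotype difference in EE and -0.255 ± 0.11 for the difference of the changes. In EE the genotypes overlapped in the summed level of 8 astrocyte markers, which was 1855, 1639 and 1865 CPM in controls and between 1647 and 1694 CPM in CBP-ifKOs. Of the 8 markers, 3 were lower in every EE-housed CBP-ifKO than in every EE-housed control (25.3% of all genes did not overlap there, in either direction), namely Sox9 (-0.27 ± 0.07, adjusted p = 0.0692), Aldoc (-0.17 ± 0.07, adjusted p = 0.179) and S100b (-0.15 ± 0.06, adjusted p = 0.179). Fgfr3 (0.13 ± 0.11), Gfap (0.01 ± 0.10) and Aqp4 (0.01 ± 0.09) of the same list had positive values in EE. The astrocytic glutamate carriers Slc1a3 (-0.28 ± 0.07, adjusted p = 0.0555) and Slc1a2 (-0.19 ± 0.06, adjusted p = 0.103) were lower in every EE-housed CBP-ifKO than in every EE-housed control, and all of these genes were chosen after their values were seen. In SC the same sum was between 1792 and 1835 CPM in controls and between 1682 and 1715 CPM in CBP-ifKOs, and the part of these cells in the values of Slc38a3 was not tested. From SC to EE in controls, where Slc38a3 had a positive value, the astrocyte markers had a median of -0.09, with 5 of 8 negative. Sox9 (-0.40) and Gja1 (-0.16) were lower in every EE-housed control than in every SC-housed one, where 9.11% of all genes did not overlap. Both were picked after their values were seen. Aldh1l1 (0.13), Aldoc (0.06) and S100b (0.03) of the same list had positive values. The closest patterns over the 12 mice were those of Gpnmb (r = 0.903), Fxyd1 (0.882) and Prl (0.882), of which Prl was scarce (mean log2 CPM of -1.2).

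The remaining transporters, which the study did not select, are given with their tests. Slc7a5 (LAT1, chr8:121881150-121907694, minus strand) had 68.0, 63.2 and 63.5 CPM in SC-housed controls, 71.5, 70.0 and 75.4 in EE-housed controls, 64.6, 61.0 and 59.6 in SC-housed CBP-ifKOs and 64.6, 65.6 and 58.8 in EE-housed CBP-ifKOs. The EE-housed controls again lay above all other mice, as for Slc38a3, yet neither the change in controls (0.16 ± 0.06, edgeR adjusted p = 0.999) nor the genotype difference in EE (-0.19 ± 0.06, adjusted p = 0.13) passed the threshold. Without replicate 1 of the EE-housed controls these values of Slc7a5 were 0.16 ± 0.07 and -0.20 ± 0.08. Slc1a4 (ASCT1, chr11:20302180-20332713, minus strand), a carrier of alanine, serine and cysteine, had 86.8, 90.6 and 94.99 CPM in SC-housed controls and 78.7, 82.0 and 79.6 CPM in SC-housed CBP-ifKOs. In EE it had 86.6, 84.0 and 85.9 CPM in controls and 80.3, 78.0 and 80.7 CPM in CBP-ifKOs. All CBP-ifKOs lay below all controls of the same housing, with log2 fold changes of -0.18 ± 0.06 in SC (adjusted p = 0.0818) and -0.09 ± 0.05 in EE (adjusted p = 0.381). The SC difference passed the threshold without replicate 2 of the SC-housed controls (-0.18, adjusted p = 0.0494) and with all 12 mice in 1 fit (-0.18, adjusted p = 0.0494). Astrocyte, interneuron, microglial, endothelial and choroid plexus marker sums were lower in the CBP-ifKOs of SC as well, although Vip, Kl and Aldh1l1 of these lists had positive values there (0.17, 0.22 and 0.14), and the part of these cells in the values of Slc1a4 was not tested.

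Slc3a2 (chr19:8706882-8723369, minus strand), the heavy chain shared by SLC7A11 and SLC7A5, passed the threshold in no comparison of all 3 mice per group. It had 126.4, 112.8 and 138.5 CPM in SC-housed controls, 127.8, 113.7 and 127.9 in EE-housed controls, 117.6, 117.6 and 115.7 in SC-housed CBP-ifKOs and 127.9, 118.6 and 120.7 in EE-housed CBP-ifKOs. The log2 fold change between genotypes was -0.11 ± 0.07 in SC (adjusted p = 0.423) and 0.00 ± 0.07 in EE, with a 95% interval of -0.15 to 0.15. Without replicate 2 of the SC-housed controls, the lowest of its group, the SC difference was -0.18 (adjusted p = 0.0431). From SC to EE the change was -0.03 ± 0.07 in controls, with an interval of -0.18 to 0.12, and 0.07 ± 0.07 in CBP-ifKOs, with an interval of -0.08 to 0.21. Of the 50-base sequences in its exons, 3.51% also occur in other genes (1.47% for Slc7a11), so that a small part of its reads is of uncertain origin.

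Atf4 itself (chr15:80255184-80257541, plus strand) had similar mRNA levels in the 4 groups. The values were 137.8, 130.5 and 145.7 CPM in SC-housed controls, 128.9, 130.2 and 121.9 in SC-housed CBP-ifKOs, 136.6, 123.0 and 145.8 in EE-housed controls and 130.4, 120.3 and 133.7 in EE-housed CBP-ifKOs. All SC-housed CBP-ifKOs lay just below the lowest SC-housed control, with a log2 fold change of -0.12 ± 0.06 (adjusted p = 0.266), and in EE the change was -0.07 ± 0.08 (adjusted p = 0.671). Between housings it was -0.03 in controls (95% interval -0.17 to 0.11) and 0.01 in CBP-ifKOs (-0.13 to 0.16). ATF4 is regulated largely at translation, which these counts do not measure.

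Asns (chr6:7675169-7693254, minus strand), whose product makes asparagine from aspartate and glutamine, had small positive values in all 4 pairwise comparisons, none past the threshold. It had 113.0, 103.4 and 113.2 CPM in SC-housed controls, 115.4, 108.6 and 122.1 in EE-housed controls, 110.8, 121.4 and 114.9 in SC-housed CBP-ifKOs and 117.6, 124.1 and 126.8 in EE-housed CBP-ifKOs. The groups overlapped throughout, and the log2 fold changes lay between 0.07 and 0.10 with upper 95% bounds between 0.20 and 0.24. Ddit3 (chr10:127290774-127296288, plus strand), the stress-induced factor CHOP, had 18.3, 17.2 and 20.2 CPM in SC-housed controls and 18.4, 17.3 and 17.5 CPM in SC-housed CBP-ifKOs. In EE it had 19.1, 16.3 and 18.7 CPM in controls and 16.5, 15.9 and 16.2 CPM in CBP-ifKOs. Its log2 fold changes ranged from -0.15 ± 0.09 (genotype in EE, adjusted p = 0.409) to -0.04 ± 0.08 (housing in controls). Of its exonic bases, 6.13% are shared with a further annotated entry of Ddit3 on the same strand, which had 0 counts in the 12 mice, and 3.97% overlap Mars on the opposite strand, and whether the counting used strand is not stated, so reads there cannot be assigned. Trib3 (chr2:152337422-152344032, minus strand), a pseudokinase that ATF4 induces, had between 12 and 26 counts per library (0.436 to 0.945 CPM). At this depth its intervals reached from -0.92 to 0.73 over the 4 pairwise comparisons of groups, so that a change of that size was not detectable.

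Of the 7 genes that the study did not select, none passed the adjusted threshold of 0.05 between genotypes in SC, where 5.52% of all genes did, or in EE, where 4.57% did. From SC to EE none passed in controls, where 0% of 18251 genes passed by edgeR (768 at an unadjusted p under 0.05, and 15 adjusted by DESeq2), and none in CBP-ifKOs, where 0.011% passed. None passed for the interaction (0% of all genes by edgeR, 574 at an unadjusted p under 0.05, and 0 by DESeq2). The groups did not overlap for 2 of the 10 genes between genotypes in SC (25.9% of all genes), 5 in EE (25.3%), 4 from SC to EE in controls (9.11%) and 3 in CBP-ifKOs (15.9%). Without the 3 genes of the study's list, the count was 2 of 7 in each of these comparisons. The median log2 fold change of those 7 genes was -0.08 between genotypes in SC, -0.09 in EE, -0.03 from SC to EE in controls and 0.01 in CBP-ifKOs, against medians within 0.014 of 0 for all genes. Without replicate 1 of the EE-housed controls, the median of all 10 genes was -0.074 between genotypes in EE (-0.081 with that mouse), -0.062 from SC to EE in controls (-0.037) and 0.034 for the interaction (0.029).

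**Figure D3:**
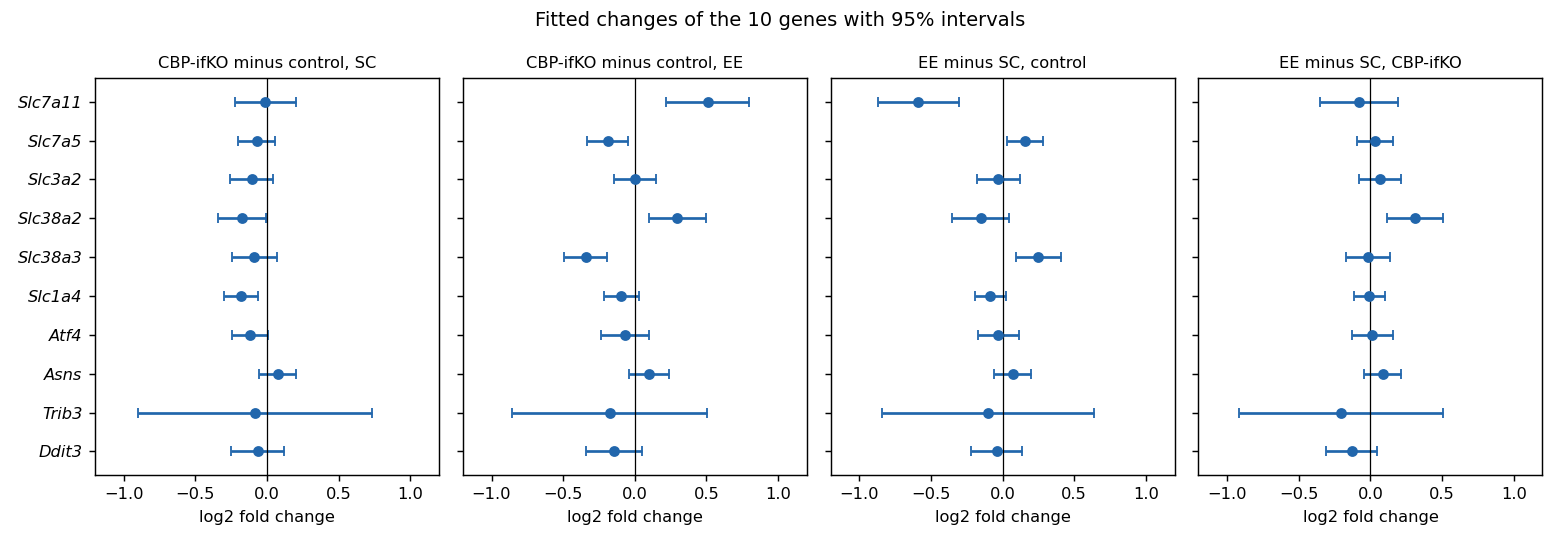
Fitted log2 fold changes of the 10 genes (horizontal axes) in the 4 pairwise comparisons, with points for estimates and bars for 95% intervals. Slc7a11, Slc38a2 and Slc38a3, which the study selected on these mice, lie farthest from 0 in the EE comparison of genotypes (0.51, 0.30 and -0.34), and the interval of Trib3 is wide in every panel.

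From mouse to mouse, the ATF4 genes and the transporters did not form a single block. Among the 45 pairs of members, the log2 CPM of Slc3a2, Atf4 and Ddit3 went together over the 12 mice, with r = 0.792 for Slc3a2 and Atf4, 0.748 for Atf4 and Ddit3 and 0.654 for Slc3a2 and Ddit3. After removal of the 4 group means the same pairs had r = 0.794, 0.791 and 0.920, so this likeness held between mice of the same group. Slc1a4 went with Atf4 (r = 0.692, and 0.553 after removal of group means) and with Ddit3 (0.644 and 0.503). Asns had low or negative r with Atf4 (0.083), Slc3a2 (0.254), Ddit3 (-0.244) and Slc1a4 (-0.466). After removal of group means these were 0.661, 0.548, 0.451 and 0.308. Slc7a11 and Slc38a2 had r = 0.468, and 0.636 after that removal. Slc7a11 ran against Slc7a5 (r = -0.727) and Slc38a3 (r = -0.722), and these values fell in size to -0.260 and -0.252 after removal of group means. These correlations are descriptions over 12 mice that share libraries, depth and groups. The level of Asns was most like those of Timm8b (r = 0.961), Adh5 (0.953) and Mrpl2 (0.950), none of which is an amino acid carrier.

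Other genes of the same pathways were taken from 5 lists of 114 genes, of which 112 were abundant enough to test (Fgf21 and Gdf15 were not). Among 30 other amino acid transporters, 2 passed the threshold between genotypes in SC (Slc38a7 and Slc7a3, which rose), where 5.52% of all genes did. In EE 3 passed (Slc7a3, which rose, and Slc43a2 and Slc7a8, which fell), where 4.57% of all genes did, so that nothing particular to the list is read from these counts. Slc7a3, a carrier of cationic amino acids, was at 14.5, 16.2 and 17.0 CPM in SC-housed controls and at 19.6, 19.3 and 21.8 in SC-housed CBP-ifKOs, with a log2 fold change of 0.35 ± 0.09 (edgeR adjusted p = 0.0433). In EE it was at 15.3, 15.3 and 15.4 CPM in controls and at 25.0, 20.7 and 18.2 in CBP-ifKOs, with a change of 0.48 ± 0.11 (adjusted p = 0.0339). Slc38a7, a carrier of glutamine, had a change of 0.26 ± 0.06 in SC (adjusted p = 0.03). Slc43a2 and Slc7a8, carriers of large neutral amino acids like LAT1, had changes of -0.43 ± 0.09 (adjusted p = 0.0182) and -0.27 ± 0.07 (adjusted p = 0.0421) in EE. The SC call of Slc7a3 was lost with all 12 mice in the fit (0.35, adjusted p = 0.0655). Most of these calls were lost when 1 mouse was left out, and Slc7a8 passed in SC without replicate 2 of the controls (-0.19, adjusted p = 0.0305). In SC, Slc7a3 (adjusted p between 0.0611 and 0.161) and Slc38a7 (0.0791 to 0.122) lost theirs without any mouse but replicate 2 of the controls. In EE, Slc7a3 lost its call without any mouse but replicate 3 of the CBP-ifKOs (0.0627 to 0.108), Slc7a8 without any mouse (0.0603 to 0.182), and Slc43a2 without replicate 3 of the controls or replicates 1 or 3 of the CBP-ifKOs (0.0645 to 0.1). The median of the 30 transporters was -0.06 in SC and -0.03 in EE, and without replicate 1 of the EE-housed controls the latter was 0.021. Without that mouse the medians between genotypes in EE were 0.026 for the ATF4 response genes (0.032 with it), 0.137 for eIF2 kinases and control (0.122), -0.04 for the ATF6 and XBP1 arms (-0.046) and -0.002 for NRF2 and glutathione genes (-0.003).

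None of 39 other ATF4 response genes passed the threshold in any comparison, and their medians lay between -0.03 and 0.03. Sesn2, an inhibitor of mTORC1 signalling induced by ATF4, had the smallest p of the list between genotypes, with 0.28 ± 0.08 in SC (adjusted p = 0.0701) and 0.31 ± 0.09 in EE (adjusted p = 0.0741). From SC to EE the smallest p belonged to Jdp2 in controls (0.23 ± 0.08) and to Atf3 in CBP-ifKOs (0.85 ± 0.27), where Atf3 had between 0.485 and 1.29 CPM. Among the 13 eIF2 kinases and genes of eIF2 control, Eif2ak2, the kinase PKR that senses double-stranded RNA, rose between genotypes in both housings. It was at 3.97, 6.23 and 5.08 CPM in SC-housed controls and at 7.41, 8.31 and 8.32 in SC-housed CBP-ifKOs, with a log2 fold change of 0.65 ± 0.16 (adjusted p = 0.034). In EE it was at 5.00, 5.21 and 3.69 CPM in controls and at 7.60, 10.8 and 7.46 in CBP-ifKOs, with a change of 0.91 ± 0.18 (adjusted p = 0.0179). The SC call was lost without any mouse but replicate 2 of the controls (adjusted p between 0.0698 and 0.114), and the EE call without replicate 3 of the controls (0.0815) or replicate 2 of the CBP-ifKOs (0.0665). The median of the list was 0.09 in SC and 0.12 in EE, with 10 and 12 of 13 genes positive.

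The ATF6 and XBP1 arms, the other branches of the response to misfolded proteins, hold 16 genes here, mostly chaperones and factors of protein folding. Pdia6, a disulfide isomerase, fell between genotypes in SC, from 125.1, 143.6 and 135.4 CPM to 108.6, 106.5 and 104.5 CPM (-0.34 ± 0.06, adjusted p = 0.00802). In EE Pdia6 passed the threshold only without replicate 2 of the controls among the fits that left out 1 mouse (-0.31, adjusted p = 0.0336). From SC to EE, no gene of the list passed the threshold with the filter on low counts, and Pdia6 passed in controls without it (-0.29, adjusted p = 0.00661). The other genes of the list were not looked up in the fit without that filter. Of the 16 genes, 14 had negative values in controls (median -0.13) and 15 of 16 in CBP-ifKOs (median -0.15), against medians of 0.00 for all genes in both. The groups did not overlap for 6 of the 16 in controls and for 5 in CBP-ifKOs (9.11% and 15.9% of all genes), each time with lower values in EE, and without replicate 1 of the EE-housed controls 13 of 16 were negative in controls (median -0.18). In the same comparison all 5 meningeal fibroblast markers (median -0.51) and 5 of 6 endothelial markers (median -0.16) also had negative values. In CBP-ifKOs 4 of 5 meningeal markers were positive (median 0.43) and the endothelial median was 0.01. The 8 astrocyte markers had medians of -0.09 in controls (5 negative) and -0.05 in CBP-ifKOs (6 negative). Of these, Sox9 (-0.40 in controls and -0.41 in CBP-ifKOs) and Gja1 (-0.16 and -0.18) were lower in every EE-housed mouse than in every SC-housed mouse of the same genotype. Both were picked after their values were seen. Aldh1l1 (0.13), Aldoc (0.06) and S100b (0.03) were positive in controls, and Gfap (0.09) and Fgfr3 (0.10) in CBP-ifKOs. The part of these cells in the values of the ATF6 and XBP1 arms was not tested. The medians of the other 4 pathway lists from SC to EE in controls lay between -0.007 and 0.016 without replicate 1 of the EE-housed controls. Hspa5, the chaperone BiP, was at 282.6, 359.7 and 304.3 CPM in SC-housed controls and at 254.1, 221.9 and 260.3 in EE-housed controls (-0.36 ± 0.10, adjusted p = 0.803). Xbp1 was at 92.5, 93.9 and 84.4 CPM in SC-housed CBP-ifKOs and at 80.8, 69.2 and 78.3 in EE-housed CBP-ifKOs (-0.25 ± 0.07, adjusted p = 0.382). None of 14 NRF2 and glutathione genes, which include the enzymes of glutathione synthesis, passed in any comparison, and their medians lay between -0.02 and 0.03. Hmox1, heme oxygenase, had the smallest p of that list between genotypes, at -0.42 ± 0.16 in SC (adjusted p = 0.159) and -0.44 ± 0.16 in EE (adjusted p = 0.144).

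**Figure D4:**
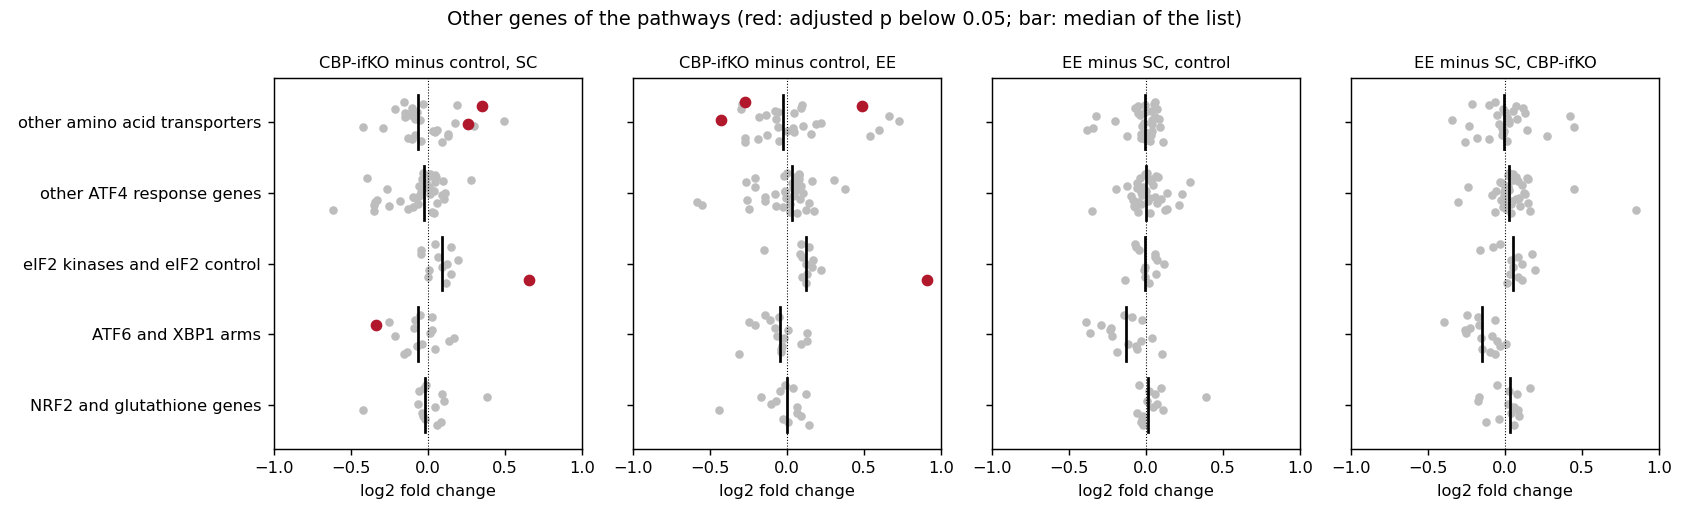
Log2 fold changes (horizontal axes) of the other genes of 5 pathway lists (rows) in the 4 pairwise comparisons, with red for an adjusted p below 0.05, grey for the rest and a bar at the median of each list. The few red points are in the genotype panels, and the points of the ATF6 and XBP1 arms lie mostly left of 0 in both housing panels (medians -0.13 and -0.15).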

How the data were processed

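Single-end reads of 50 bases from hippocampal RNA were checked with FastQC 0.11.8, trimmed with Trim Galore 0.6.4 and aligned to GRCm38 with STAR 2.6.1 by the authors. Alignments of mapping quality 10 or less were dropped, and exonic reads were summed per Ensembl gene in Rsubread. The strand setting is not given in the sources used here. The deposited table gives unnormalized read counts for each gene, both runs of a mouse being merged. The deposited gene lengths are values of the annotation and served only for levels per kilobase.

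Groups were taken from the labels. The counts were fitted in R 4.3.3 by edgeR 4.0.16 (filterByExpr, TMM, quasi-likelihood F test, Benjamini-Hochberg adjustment over all genes tested, threshold 0.05). Genotypes were compared in the 6 mice of each housing, and housing and interaction were tested in all 12 mice with 1 coefficient per group. The 95% intervals use the t quantile of the fit's degrees of freedom. Likeness is Pearson's r of log2 CPM (prior count 2). Positions are from GENCODE, GRCm38, and promoters from RefSeq. The procedure was tested on simulated data. Alternatives were DESeq2 1.42.0, RLE size factors, no filter or a filter of 1 CPM in 3 mice, halved CBP-ifKO counts, a replicate block, all 12 mice in the genotype fits and leaving out each mouse. List medians without 1 mouse were added after seeing the data. The labels do not say more of the replicates than that they are separate mice.

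The members, the 5 pathway lists (other amino acid transporters, other ATF4 response genes, eIF2 kinases and eIF2 control, ATF6 and XBP1 arms, NRF2 and glutathione genes) and the 8 marker lists were chosen with earlier results of these data known. The genes named are the members, Crebbp, up to 3 called genes in each direction per list and comparison or otherwise at most the 1 with the smallest p, and for 4 members the 3 genes with the highest r.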

Additional observations from a re-analysis of the deposited data

How the results depend on the processing

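Of the member values, 792 of 795 alternative values kept their side of the threshold or lay within the spread between mice. The 3 exceptions were Slc3a2 and Slc1a4 in SC, as given above. For Slc7a11, Slc38a2 and Slc38a3 only the spread between mice was the yardstick, and a change of sign could count as kept. Leaving out 1 of 3 mice can hardly move a value by that much, so for these genes the count is no sign of stability. Slc7a11 changed sign in some of these fits, as given above. The number of genes called depended on the settings. Without a filter on low counts, 1512 genes were called between genotypes in SC (968 with the filter), 1677 in EE (805), 145 and 247 from SC to EE in controls and CBP-ifKOs (0 and 2) and 110 for the interaction (0), and the pathway genes called were 7, 11, 2, 4 and 2 in the same order (4, 4, 0, 0 and 0 with it). DESeq2 called 1262 genes between genotypes in EE, 15 and 50 from SC to EE in controls and CBP-ifKOs, and 10 pathway genes in EE. With all 12 mice in the fit, 1293 genes and 11 pathway genes were called between genotypes in EE. With the CBP-ifKO counts halved, 0 genes were called from SC to EE in CBP-ifKOs. Leaving out 1 mouse gave 399 to 1908 genes in SC, 285 to 1016 in EE, 0 to 5 and 0 to 10 from SC to EE in controls and CBP-ifKOs, and 1 to 9 and 0 to 5 pathway genes between genotypes in SC and EE. The largest count in SC (1908, with 9 pathway genes) was found without replicate 2 of the SC-housed controls, and the smallest in EE (285, with 0 pathway genes) without replicate 3 of the EE-housed controls. The causes were not tested.

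Replicate numbers are shared by the groups, but the deviations of same-numbered mice from their group means correlated above 0.1 in only 5 of 18 pairs (range -0.067 to 0.305), so the numbers were not taken as pairs. With the replicate block, 1041 genes were called between genotypes in SC, 1089 in EE, 0 from SC to EE in controls, 17 in CBP-ifKOs and 0 for the interaction, and 5 and 8 pathway genes between genotypes in SC and EE. Trib3, with 12 to 26 counts, was removed by the filter of 1 CPM in 3 mice, and its depth limits what could be detected. The alternative fits covered all genes. Further pathway genes were called in some of them, as by DESeq2 in EE, and are not named here. Single values were looked up only for the 6 pathway genes with a call in the main fits (Slc7a3, Slc7a8, Slc38a7, Slc43a2, Eif2ak2 and Pdia6). Of their 480 alternative values, 38 changed their side of the threshold, and those found when a mouse was left out are given above. Without a filter on low counts, Slc43a2 was called from SC to EE in CBP-ifKOs (-0.34, adjusted p = 0.000359) and for the interaction (-0.38, adjusted p = 0.0323), and Pdia6 between genotypes in EE (-0.23, adjusted p = 0.0338) and from SC to EE in controls (-0.29, adjusted p = 0.00661).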
